A study of Homo sapiens with 18 samples.

Results

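The genes described here are 9 enzymes of the pentose phosphate pathway and of NADPH supply, out of 58302 genes in the deposited RNA-seq count table. They were chosen by name, through the Ensembl identifier of each row, as enzymes of the pentose phosphate pathway or as other sources of NADPH in the cytosol or the mitochondrion. PGLS and PGD belong to the oxidative branch of the pathway, and RPIA, TALDO1 and TKT belong to its non-oxidative branch. ME1 and IDH1 are cytosolic dehydrogenases, and IDH2 and NNT work in mitochondria. The libraries were made from U87MG, an established human glioblastoma cell line that the labels call U87, grown in DMEM with serum in both groups. The control group (2 libraries) is titled WT and was kept under normal growth, and the labels name no vehicle for it. The other group (2 libraries) received Erastin, an inhibitor of the cystine transporter system Xc-, at 10 μM for 72 h. The comparison asked how the RNA of these enzymes differed after Erastin. All libraries came from 1 cell line, 1 dose and 1 time, and the labels give the replicates numbers but do not name them as separate cultures. The p-values below therefore measure the spread between these libraries, which may be technical.

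NADPH carries the electrons that glutathione reductase, thioredoxin reductase and the enzymes of fatty acid and sterol synthesis use. The oxidative branch of the pentose phosphate pathway makes NADPH while it turns phosphorylated glucose into a pentose phosphate, and the non-oxidative branch exchanges pentose phosphates with sugar phosphates of glycolysis. Malic enzyme and the NADP-dependent isocitrate dehydrogenases reduce NADP+ with carbon from malate or isocitrate, and the transhydrogenase NNT passes electrons from NADH to NADP+ at the inner mitochondrial membrane.

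The totals of the 4 libraries lay between 29412656 and 31513519 counts, and 16751 genes passed the filter on low counts and were tested. Genes of the mitochondrial chromosome took 7.23% to 7.85% of the counts in control cells and 2.80% to 3.54% in Erastin-treated cells. Among 8 markers of glioma and glia, VIM and CD44 were abundant, with 77887 and 77105 counts on VIM in control cells. SOX2, S100B and FABP7 had at most 6 counts in any library, so the cells lacked these glial markers. NES fell from 1277 and 972 counts to 105 and 77 after Erastin (log2 fold change −3.62, adjusted p = 3.97e-08 by edgeR). GFAP and OLIG2 had at most 81 and 88 counts in a library, and neither passed the test. The summed level of the 8 markers came mostly from VIM and CD44. It was 3997 and 3923 CPM (counts relative to the library's total after TMM scaling) in control cells and 2672 and 2861 CPM after Erastin. The 4 neuron markers summed to 37.1 and 40.8 CPM in control cells against 4.75 and 5.44 CPM after Erastin, most of it SNAP25. The 4 epithelial markers stayed at or under 0.547 CPM in sum, with CDH1 and KRT18 at 0 in every library. The 4 blood and endothelial markers summed to 4.97 and 6.66 CPM in control cells and 1.87 and 2.77 CPM after Erastin, with 1 count on PTPRC in all libraries together. Of these, PECAM1 fell by 2.34 on the log2 scale (adjusted p = 4.81e-05 by edgeR) and VWF rose by 2.58 (adjusted p = 0.0125). VWF had only 4 and 4 counts in control cells and 17 and 32 after Erastin. All libraries came from 1 cell line. In bulk RNA, fewer cells that express a gene and less RNA per cell cannot be told apart.

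The sequences before the start sites of 5 members are shown as examples with and without a short motif that is used by the antioxidant regulator NRF2. The motif searched was the core of the antioxidant response element, TGACNNNGC, read on both strands. Windows ran from 250 bases before to 50 bases after the MANE Select start of each member on GRCh38. The motif was found in 3 of the 9 windows, those of PGD, ME1 and IDH1, whereas 4687 of 35116 RefSeq promoters of the same length (13.3%) held it. With the start sites of the RefSeq table (GRCh38.p14), 2 of the 9 members held it (PGD and ME1), since that table places the start of IDH1 613 bases away. The starts of IDH2 and NNT also differed, by 1847 and 505 bases, and neither gene held the motif at either start. The matches lay at −201 in PGD (on the opposite strand), at −137 and, on the opposite strand, 11 in ME1, and at −143 in IDH1, counted from the start site. The other 6 windows had no match, those of PGLS, RPIA, TALDO1, TKT, IDH2 and NNT, so members without it were among those that rose and those that fell. TKT and IDH2 are printed as examples without a match. The composite element of ATF4 and C/EBP, TGATGNAA, was in none of the 9 windows and in 1270 of the 35116 promoters (3.62%). Of the 10 NRF2 reference targets described below, 7 had a RefSeq promoter. The antioxidant core was in 2 of these (GCLM and TXNRD1), although all 10 targets rose. A match describes the letters of a window and is not a measured binding site. Each sequence below reads 5′ to 3′ on the strand of its gene, begins 250 bases before the start site, and ends at the next annotated exon of the gene. Capitals mark the motif, and the ME1 match at 11 lies outside the printed stretch. The IDH1 stretch overlaps an exon of IDH1-AS1 on the opposite strand, and the IDH2 stretch one of IDH2-DT.
PGD, chr1:10398814-10399043, plus strand: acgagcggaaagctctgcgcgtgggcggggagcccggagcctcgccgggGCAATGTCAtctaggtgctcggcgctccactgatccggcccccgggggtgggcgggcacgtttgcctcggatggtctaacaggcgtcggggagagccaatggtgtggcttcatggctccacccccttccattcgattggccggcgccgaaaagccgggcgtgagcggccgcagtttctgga
ME1, chr6:83431072-83431301, minus strand: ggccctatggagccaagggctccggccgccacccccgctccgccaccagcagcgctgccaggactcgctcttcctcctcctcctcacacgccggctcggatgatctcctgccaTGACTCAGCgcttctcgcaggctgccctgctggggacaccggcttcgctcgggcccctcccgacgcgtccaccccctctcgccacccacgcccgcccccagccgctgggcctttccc
IDH1, chr2:208255134-208255321, minus strand: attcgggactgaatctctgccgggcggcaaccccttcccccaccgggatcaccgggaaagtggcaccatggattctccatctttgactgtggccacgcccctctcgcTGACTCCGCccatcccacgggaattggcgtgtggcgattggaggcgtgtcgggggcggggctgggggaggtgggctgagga
TKT, chr3:53256053-53256272, minus strand: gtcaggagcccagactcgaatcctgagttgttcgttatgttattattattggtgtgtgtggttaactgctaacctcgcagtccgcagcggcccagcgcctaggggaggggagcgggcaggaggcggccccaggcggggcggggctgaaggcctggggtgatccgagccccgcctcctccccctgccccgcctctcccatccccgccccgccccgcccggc
IDH2, chr15:90102505-90102718, minus strand: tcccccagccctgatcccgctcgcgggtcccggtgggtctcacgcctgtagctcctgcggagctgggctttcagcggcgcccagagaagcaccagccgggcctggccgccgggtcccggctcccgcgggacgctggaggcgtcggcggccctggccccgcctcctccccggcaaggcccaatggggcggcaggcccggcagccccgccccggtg

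After Erastin, 5 of the 9 members rose (PGLS, PGD, RPIA, TALDO1 and IDH1) and 2 fell (TKT and IDH2), at an adjusted p under 0.05 in edgeR's quasi-likelihood test with Benjamini-Hochberg adjustment over all genes tested. ME1 and NNT did not pass. Over all genes tested, 23.2% were higher and 23.7% were lower by the same rule, and 47.0% passed in either direction. All 9 members passed the filter on low counts. Only IDH2 also passed a 2-fold threshold, at which 9.34% of all genes were downregulated and 6.24% upregulated. The groups did not overlap for any of the 9 members (6 higher, 3 lower after Erastin), as was the case for 73.6% of all genes tested. The median log2 fold change of the members was 0.25, against −0.0026 over all genes. Without Erastin replicate 1, 2 members rose (PGD and TALDO1) and 2 fell (TKT and IDH2). The summed level of the 9 members was 1359 and 1252 CPM in control cells and 1352 and 1367 CPM after Erastin, so the sums of the groups overlapped while single members moved apart.

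**Figure D1:**
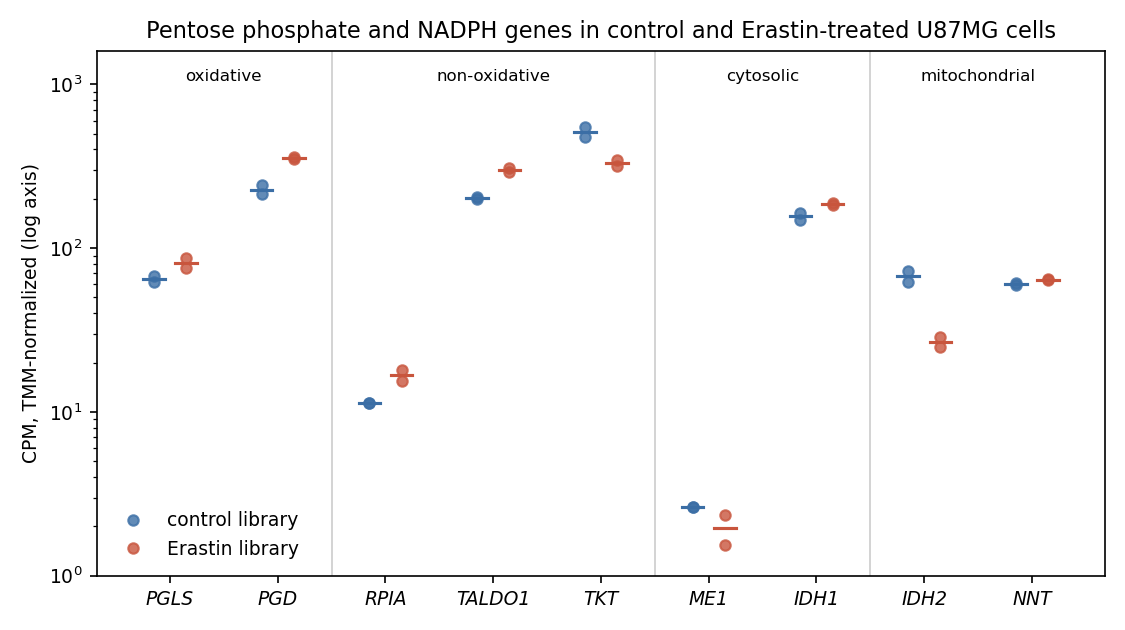
Level of each of the 9 members in each library, in CPM after TMM scaling on a log axis, with blue points for the 2 control libraries, red points for the 2 Erastin libraries and a line at each group's mean. PGD, TALDO1 and RPIA sit higher after Erastin, TKT and IDH2 sit lower, and ME1 lies far below the rest at 1.54 to 2.64 CPM.

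PGLS (ENSG00000130313, chromosome 19 of GRCh38, 17511629 to 17521288, plus strand) encodes phosphogluconolactonase, which opens the lactone ring in the oxidative branch. Control libraries held 2065 and 1919 counts on it, and Erastin libraries 2592 and 2378. Both Erastin values were above both control values, but in CPM the gap between the groups was smaller than the difference between the Erastin libraries. The level rose from 64.7 ± 4.07 CPM to 81.2 ± 7.76 CPM (SD, n = 2 in each group), which is 1.26-fold (log2 0.33, standard error 0.0865, adjusted p = 0.00829 by edgeR's quasi-likelihood test). Without Erastin replicate 1 the log2 fold change was 0.23 and its adjusted p was 0.126. The lncRNA PGLS-DT on the opposite strand shares 261 exon bases with PGLS (9.17% of its exon length), and the unstranded counting could not part reads there. PGLS-DT itself had 150 and 164 counts in control cells and 245 and 281 after Erastin.

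PGD (ENSG00000142657, chromosome 1, 10398592 to 10420144, plus strand) encodes phosphogluconate dehydrogenase, the NADPH-making step that yields the pentose phosphate. Its counts were 7375 and 6602 in control cells and 10396 and 11279 after Erastin. The lower Erastin count was well above the higher control count. In CPM the level went from 227 ± 20.3 to 353 ± 8.06 (SD, n = 2), which is 1.56-fold (log2 0.64, 95% interval 0.48 to 0.80, adjusted p = 2.31e-05 by edgeR's quasi-likelihood test). This was the largest rise among the members. Leaving out each library in turn gave a log2 fold change between 0.54 and 0.73. A processed pseudogene of PGD, PGDP1, had at most 2 counts in a library.

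Both members of the oxidative branch thus rose, and their summed level was 309 and 274 CPM in control cells and 434 and 435 CPM after Erastin. The 2 Erastin libraries agreed closely on this sum, and neither group overlapped the other.

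In the non-oxidative branch, 2 of 3 members rose and 1 fell. RPIA (ENSG00000153574, chromosome 2, 88691644 to 88750935, plus strand) encodes the isomerase that forms ribose phosphate, the sugar of nucleotides. It had 348 and 351 counts in control cells and 537 and 484 after Erastin. The control libraries were almost equal and both Erastin libraries lay above them. RPIA rose from 11.3 ± 0.0581 CPM to 16.7 ± 1.80 CPM (SD, n = 2), 1.47-fold (log2 0.56, standard error 0.138, adjusted p = 0.00597 by edgeR's quasi-likelihood test). Its adjusted p was 0.0730 without Erastin replicate 1, with a log2 fold change of 0.44. Its pseudogene RPIAP1 had no counts in any library.

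TALDO1 (ENSG00000177156, chromosome 11, 747329 to 765024, plus strand) encodes transaldolase, which moves a dihydroxyacetone unit between sugar phosphates. The replicates agreed closely, with 6240 and 6224 counts in control cells and 9173 and 9199 after Erastin. Its level rose from 202 ± 2.63 CPM to 299.7 ± 9.83 CPM (SD, n = 2), which is 1.48-fold (log2 0.57, 95% interval 0.43 to 0.71, adjusted p = 2.07e-05 by edgeR's quasi-likelihood test). Fits without 1 library gave log2 fold changes from 0.53 to 0.60.

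TKT (ENSG00000163931, chromosome 3, 53224707 to 53256052, minus strand) encodes transketolase, the thiamine-dependent partner of transaldolase. It had 16845 and 14803 counts in control cells, the most of all members there, and 9449 and 10848 after Erastin. Every Erastin value was below every control value. TKT fell from 514 ± 52.6 CPM to 331 ± 20.8 CPM (SD, n = 2), and the fit gave a log2 fold change of −0.64 (95% interval −0.81 to −0.46, adjusted p = 4.61e-05 by edgeR's quasi-likelihood test). Fits without 1 library gave −0.74 to −0.53. The sum of the 3 members of this branch was 766 and 688 CPM in control cells and 641 and 653 CPM after Erastin, and TKT was its largest contributor in every library.

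**Figure D2:**
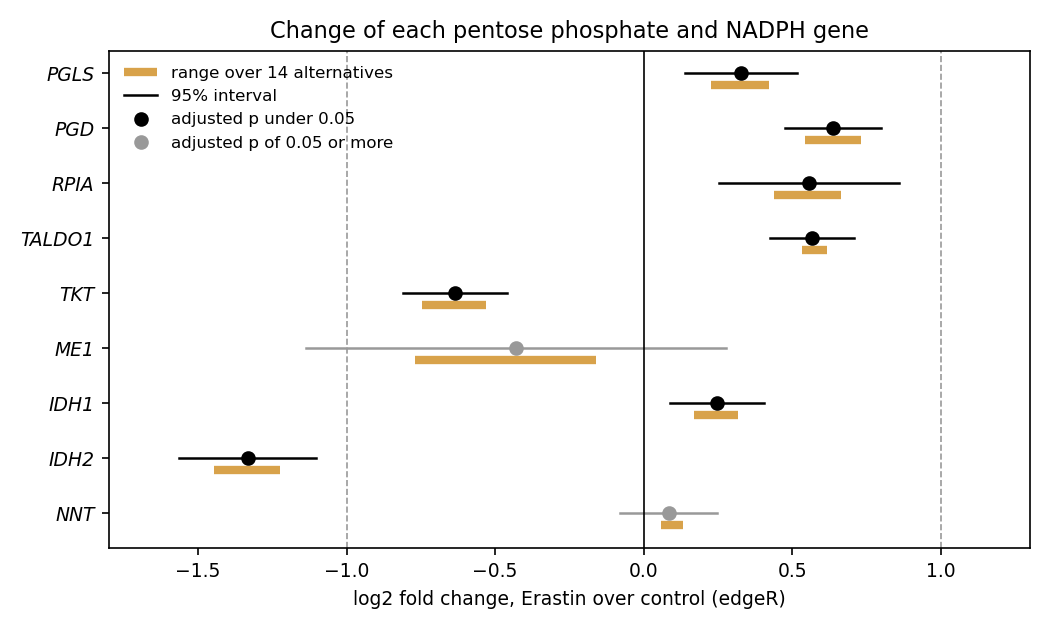
Log2 fold change of each member, Erastin over control, from edgeR, with its 95% interval as a thin line and the range over 14 other ways of processing as a thick bar. Dashed lines mark the 2-fold threshold. IDH2 at −1.33 is the member beyond it, and the intervals of ME1 and NNT include 0.

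Among the cytosolic dehydrogenases, IDH1 rose and ME1 did not pass the test. IDH1 (ENSG00000138413, chromosome 2, 208236227 to 208266074, minus strand) encodes the cytosolic and peroxisomal NADP-dependent isocitrate dehydrogenase. Its counts were 4527 and 5114 in control cells and 5489 and 5898 after Erastin. The groups did not overlap, although control replicate 2 came near the lower Erastin library. IDH1 rose from 156 ± 11.7 CPM to 186 ± 2.97 CPM (SD, n = 2), only 1.19-fold (log2 0.25, standard error 0.0720, adjusted p = 0.0141 by edgeR's quasi-likelihood test). The call was lost without control replicate 1 (adjusted p = 0.0624), without Erastin replicate 1 (0.0655) and without Erastin replicate 2 (0.101). IDH1-AS1 on the opposite strand shares 94 exon bases with IDH1 and had at most 18 counts in a library.

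ME1 (ENSG00000065833, chromosome 6, 83210389 to 83431071, minus strand) encodes cytosolic malic enzyme. It had only 80 and 82 counts in control cells and 46 and 74 after Erastin. The Erastin values were lower, but they differed from each other by far more than the control values did. Its mean level was 2.63 ± 0.0165 CPM in control cells and 1.95 ± 0.578 CPM after Erastin (SD, n = 2), with a log2 fold change of −0.43 (95% interval −1.14 to 0.28, adjusted p = 0.302 by edgeR's quasi-likelihood test). The log2 fold change was −0.16 without Erastin replicate 1 and −0.77 without Erastin replicate 2. The summed level of the cytosolic members was almost all IDH1, at 151 and 167 CPM in control cells and 185 and 190 CPM after Erastin.

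IDH2 showed the largest change of any member, while NNT, the other mitochondrial source, did not pass. IDH2 (ENSG00000182054, chromosome 15, 90083045 to 90102504, minus strand) encodes the mitochondrial NADP-dependent isocitrate dehydrogenase. It had 2215 and 1934 counts in control cells and 857 and 779 after Erastin. All Erastin values were below all control values, with a wide gap. IDH2 fell from 67.4 ± 7.20 CPM to 26.7 ± 2.73 CPM (SD, n = 2), and the fit gave a log2 fold change of −1.33 (95% interval −1.57 to −1.10, adjusted p = 1.05e-06 by edgeR's quasi-likelihood test). Leaving out each library in turn kept it between −1.45 and −1.22. By p-value it had rank 731 of the 16751 genes tested. The share of counts from the mitochondrial chromosome also fell in the Erastin libraries (given above). A fit without the genes of that chromosome gave IDH2 a log2 fold change of −1.34. Whether the fall of IDH2 and the fall of that share are linked in the cells was not tested.

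NNT (ENSG00000112992, chromosome 5, 43602692 to 43707405, plus strand) encodes the transhydrogenase of the inner mitochondrial membrane. Its counts were 1869 and 1856 in control cells and 1903 and 2026 after Erastin. Relative to their level, these 4 values lay closer together than those of any other member. The mean level was 60.4 ± 0.975 CPM in control cells and 64.1 ± 0.607 CPM after Erastin (SD, n = 2), with a log2 fold change of 0.08 (95% interval −0.08 to 0.25, adjusted p = 0.391 by edgeR's quasi-likelihood test). NNT-AS1, which shares 217 exon bases with NNT on the opposite strand, had 229 and 214 counts in control cells and 278 and 392 after Erastin. The summed level of IDH2 and NNT was 134 and 122 CPM in control cells and 92.3 and 89.3 CPM after Erastin.

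Ratios of paired enzymes within a library do not depend on the scaling between libraries. The ratio of IDH1 to IDH2 counts, the cytosolic to the mitochondrial form, was 2.04 and 2.64 in control cells and 6.40 and 7.57 after Erastin. It was 3.00-fold higher in Erastin-treated cells, a log2 difference of 1.58. The ratio of TALDO1 to TKT, the partner enzymes of the non-oxidative branch, was 0.370 and 0.420 in control cells and 0.971 and 0.848 after Erastin, 2.30-fold higher. Neither ratio overlapped between the groups. The exact two-sided permutation p was 0.333 for each, which is the smallest value that 2 libraries a group allow. The ratio of ME1 to ME2, a mitochondrial malic enzyme, was 0.0380 and 0.0387 in control cells and 0.0242 and 0.0385 after Erastin. Its exact permutation p was 0.667, and here all but 1 library were nearly alike. ME3, another mitochondrial malic enzyme, had at most 16 counts in a library. The genes of these ratios were also tested singly, so the ratios are no separate evidence.

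**Figure D3:**
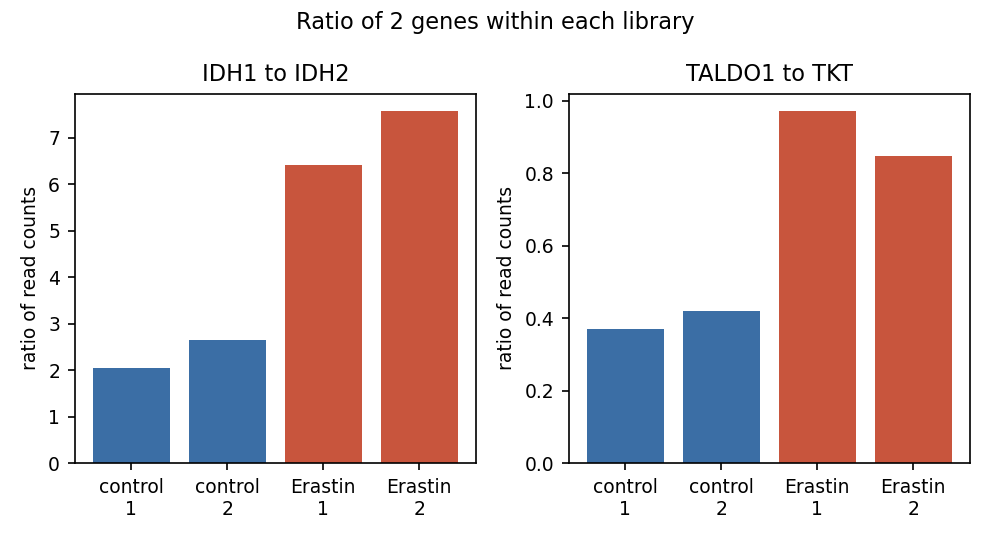
Ratio of read counts of IDH1 to IDH2 (left) and of TALDO1 to TKT (right) in each library, as bars from 0, blue for control and red for Erastin. IDH1 to IDH2 was 2.04 and 2.64 in control cells and 6.40 and 7.57 after Erastin, and TALDO1 to TKT went from 0.370 and 0.420 to 0.971 and 0.848.

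Levels of different genes were compared per length, as CPM per kilobase of the summed exon length in the deposited table. In control cells PGD led at 76.5 ± 6.84, followed by TALDO1 at 67.3 ± 0.875 and TKT at 54.0 ± 5.53 CPM per kilobase (SD, n = 2), and these 3 did not overlap. IDH1 was next at 33.1 ± 2.48, then IDH2 at 23.9 ± 2.56 and PGLS at 22.7 ± 1.43, whose libraries overlapped. NNT at 7.33 ± 0.118, RPIA at 6.14 ± 0.0314 and ME1 at 0.780 ± 0.00489 CPM per kilobase were lowest. After Erastin PGD (119 ± 2.72) and TALDO1 (99.7 ± 3.27) still led, TKT stood at 34.8 ± 2.18, below IDH1 at 39.3 ± 0.629, and IDH2 at 9.50 ± 0.970 overlapped RPIA at 9.03 ± 0.975 CPM per kilobase. The order depended on the length that was used. For TKT the summed exons (9507 bases) are far longer than the canonical transcript (2996 bases). Per kilobase of canonical transcript, an alternative chosen after the data were seen, TKT (171 ± 17.6) and TALDO1 (169 ± 2.19) led and overlapped in control cells, and PGD came after them at 100.0 ± 8.94. PGLS (64.1 ± 4.04) then overlapped IDH1 (67.4 ± 5.06) and lay above IDH2 (25.3 ± 2.71). After Erastin the order there was TALDO1, PGD at 156 ± 3.56 and TKT at 110.3 ± 6.93 CPM per kilobase, with no overlap.

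The other genes of the pentose phosphate pathway did not move as 1 group. Of 12 such genes, TKTL1 and TKTL2, paralogs of transketolase, had no counts in any library. Of the 10 tested, 2 were higher, 5 were lower and 3 did not pass, with a median log2 fold change of −0.18. TIGAR, a phosphatase that directs sugar phosphates from glycolysis toward the pentose phosphate pathway, had 773 and 915 counts in control cells and 1627 and 1879 after Erastin (log2 fold change 1.06, adjusted p = 5.61e-06 by edgeR). This rise was larger than that of any member. PRPS2, a synthetase that uses ribose phosphate to make the precursor of nucleotides, fell by 0.94 on the log2 scale (adjusted p = 1.83e-05 by edgeR), whereas PRPSAP2, a protein that associates with this synthetase, rose by 0.58 (adjusted p = 0.00125). SHPK, the sedoheptulose kinase, fell by 0.78 (adjusted p = 0.0233 by edgeR), and its adjusted p was 0.139 without Erastin replicate 1 and 0.0656 with DESeq2. Without Erastin replicate 1, 3 genes of this list were lower in place of 5.

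Among 11 other genes related to NADPH and NADP, 4 were higher, 3 were lower and 4 did not pass (median 0.13). Not every enzyme of this list is an established source of NADPH, so these counts do not measure NADPH supply. The largest rises were of mitochondrial folate enzymes. MTHFD2, the mitochondrial methylenetetrahydrofolate dehydrogenase, rose from 2085 and 2299 counts to 5792 and 5559 (log2 fold change 1.38, adjusted p = 5.28e-08 by edgeR). ALDH1L2, which makes NADPH from formyl-tetrahydrofolate in mitochondria, had 659 and 645 counts in control cells and 1549 and 1492 after Erastin (log2 fold change 1.23, adjusted p = 1.20e-06). ALDH4A1, the mitochondrial dehydrogenase of proline breakdown, rose by 0.77 (adjusted p = 0.00807 by edgeR, and 0.0542 without Erastin replicate 1). NADK2, the kinase that makes NADP+ in mitochondria, fell by 0.77 (adjusted p = 5.47e-05 by edgeR). Mitochondrial genes of this list thus lay on both sides. Without Erastin replicate 1, 2 genes of this list were higher in place of 4.

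Of 12 genes of citrate, isocitrate and malate metabolism, which handle the substrates of IDH1, IDH2 and ME1, 4 were higher, 2 were lower and 6 did not pass (median 0.07). FH, the fumarase that forms malate, fell by 0.60 on the log2 scale (adjusted p = 7.30e-05 by edgeR). ACO1, the cytosolic aconitase, which forms isocitrate, rose by 0.49 (adjusted p = 5.95e-05 by edgeR). IDH3B, a subunit of the NAD-dependent mitochondrial isocitrate dehydrogenase, rose by 0.44 (adjusted p = 0.00161 by edgeR), and no gene of this list fell as far as IDH2. In 16 genes of glycolysis, 6 were higher, 3 were lower and 7 did not pass (median 0.16). The glucose transporters SLC2A1 and SLC2A3 rose by 0.88 and 0.84 (adjusted p = 2.01e-05 and 1.19e-06 by edgeR), and ALDOA, an aldolase, by 0.43 (adjusted p = 0.000397). LDHA, which reduces pyruvate to lactate, fell by 0.40 (adjusted p = 0.000189). The counts of lower genes in both lists fell to 1 without Erastin replicate 1, and in glycolysis also without Erastin replicate 2, while without control replicate 1 10 glycolysis genes were higher.

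The genes that use NADPH were split. All 16 antioxidant reductases passed, 9 of them higher and 7 lower (median 0.31). TXNRD1, the cytosolic thioredoxin reductase, rose 4.10-fold (log2 fold change 2.04, adjusted p = 7.56e-10 by edgeR). The aldo-keto reductases AKR1C3 and AKR1C2 fell, with log2 fold changes of −1.49 and −1.23 (adjusted p = 2.47e-06 and 3.45e-06 by edgeR). Their paralog AKR1C1, which had more counts, also fell (log2 fold change −1.01, adjusted p = 3.28e-07 by edgeR). These paralogs are similar in sequence, so the split of reads between them is uncertain. The carbonyl reductase CBR3 had 93 and 109 counts in control cells and 54 and 37 after Erastin (log2 fold change −1.13, adjusted p = 0.0130 by edgeR, and 0.0677 without Erastin replicate 2). Without Erastin replicate 2, 4 reductases were lower in place of 7. Of 11 genes of lipid and folate synthesis that use NADPH, 3 were higher, 5 were lower and 3 did not pass (median −0.47). TECR, an enzyme of fatty acid elongation, fell by 0.87 on the log2 scale (adjusted p = 3.06e-06 by edgeR), whereas HSD17B12, another elongation enzyme, rose by 0.66 (adjusted p = 4.44e-05).

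The NRF2 targets and cell division markers show how far other genes moved in the same libraries. All 10 genes of a list of NRF2 reference targets rose, with a median log2 fold change of 1.98 against 0.25 for the 9 members. The list was written with earlier results of these data known and is not a full set of NRF2 targets. Genes outside it, members and reductases included, were not sorted by whether NRF2 regulates them. AKR1C1, AKR1C2 and AKR1C3, which fell (given above), are among those genes. The rise of all 10 therefore does not describe NRF2 targets as a whole. SLC7A11, the cystine-importing subunit of system Xc-, rose by 3.67, HMOX1, the inducible heme oxygenase, by 3.36, and OSGIN1, an oxidative stress response gene, by 2.88 (adjusted p = 1.66e-10, 1.98e-10 and 3.98e-10 by edgeR). TXNRD1 and NQO1 are in this list and in that of the reductases. The smallest rise in the list was 0.82, above the 0.64 of PGD, the largest rise of a member. As the list was chosen with earlier results known, this gap may come from the choice of genes and is no test. All 8 cell division markers fell, with a median of −3.57 and a summed level of 1333 and 1275 CPM in control cells against 188 and 190 CPM after Erastin. CDC20, PLK1, MKI67 and CCNB1, genes of mitosis and proliferation, fell, with log2 fold changes of −4.62, −4.51, −3.89 and −3.82 (adjusted p = 1.98e-10, 3.98e-10, 2.42e-10 and 1.98e-10 by edgeR). The part of this fall in the changes of RPIA, TKT, IDH2 and the other members was not tested.

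**Figure D4:**
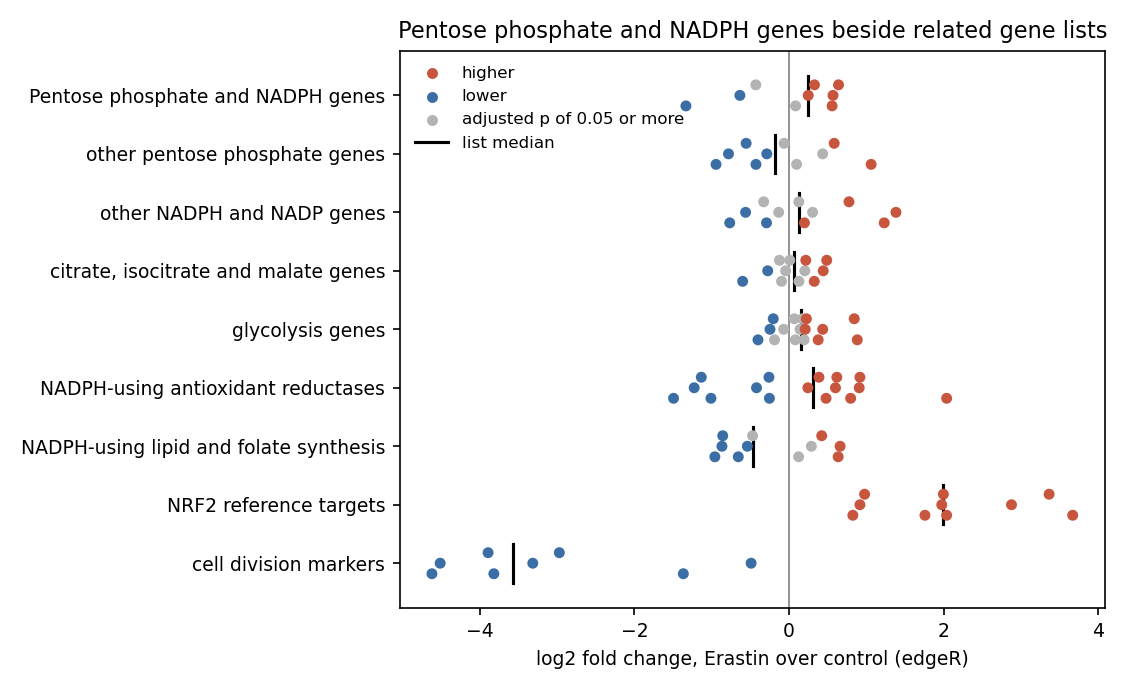
Log2 fold change, Erastin over control, of each tested gene in the 9 members (top row) and in 8 related lists, red where higher, blue where lower and grey where the adjusted p was 0.05 or more, with a black bar at the list's median. The members lie between −1.33 and 0.64 around a median of 0.25. The listed NRF2 targets all lie at 0.82 or above, and the cell division markers all lie at −0.49 or below. The lists were chosen with earlier results of these data known.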

How the data were processed

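RNA-seq of U87MG cells (2 control and 2 Erastin libraries) was used; the ChIP-seq and HiChIP samples were not analysed here. The authors deposited a table of raw read counts per gene, which per its header was written by featureCounts 2.0.3 on the Ensembl release 90 annotation of GRCh38. The submitters' processing notes name HISAT2 2.1.0 and featureCounts 2.0.4, whereas the study's methods name htseq-count. Counting ignored strand, took each read of a pair separately, and left out reads with several places or genes, so paralogs and overlapping genes are uncertain. The deposited values were also checked as possible estimated counts, and all 4 columns held whole numbers. Symbols were available for 57532 genes.

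In R 4.3.3, edgeR 4.0.16 filtered genes (filterByExpr, minimum count 10), scaled libraries (TMM, factors 0.971 to 1.02) and compared the groups with its quasi-likelihood test (prior degrees of freedom 9.48, biological coefficient of variation 10.3%). Two-sided p-values were adjusted by Benjamini-Hochberg over 16751 genes, with a threshold of 0.05, and upregulated and downregulated genes also had a log2 fold change of 1 or more in size. Standard errors were derived from the F statistic of each gene. The test was also run on simulated counts in which all genes shared 1 dispersion and far fewer genes changed than here. That run does not give the error rates of the test in these data. Same-numbered libraries were not blocked.

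The 9 members and all lists were chosen with earlier results of these data known. From each other list, up to 4 genes with the largest change were named among those that passed without overlap of the groups, and genes not tested were named too. Some genes that this rule would name are not reported here. Alternatives were DESeq2 1.42.0, limma-voom (limma 3.58.1), RLE factors, library totals, 2 other filters, the replicate block, a fit to protein-coding genes, and fits without each library. Counts of read pairs, removal of mitochondrial genes and the canonical transcript length were added after the data were seen. Gene types, transcript lengths and MANE starts came from GENCODE release 44. The study's RNA-seq methods name no molecular identifiers and no removal of duplicate reads. The counts may therefore include PCR copies, which could make the precision look better than it is. The share of such copies was not measured.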

Additional observations from a re-analysis of the deposited data

How the results depend on the processing

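No member changed direction under any of 14 alternatives. PGD, TALDO1, TKT and IDH2 kept their call in all 14, and ME1 and NNT passed in none. PGLS and RPIA lost the call in 1 and IDH1 in 3, each by leaving out a library. The number of members that rose was 5 in every fit with all libraries and ranged from 2 to 5 in the fits without 1 library, with 2 lower in each. A fit without 1 library leaves its group with a lone sample, which is assumed to vary like the other group, and fewer samples alone lower the power. The log2 difference of the ME1 to ME2 ratio (−0.33 with all libraries) lay between −0.67 and 0.0043, reversed without Erastin replicate 1. With a replicate block, 5 members rose and 2 fell, as without it, and 4030 genes were higher and 4077 lower against 3892 and 3977. Deviations of same-numbered libraries correlated at 0.0203, so the numbers were not taken as pairs. Library totals in place of TMM moved the median of all genes to 0.047 and that of the members to 0.30. ME1 had at most 82 counts in a library, and its Erastin libraries differed. With 2 libraries a group the tests borrow their variance from all genes.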
